A study of Mus musculus with 8 samples.

Results

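The genes examined were the 9 apolipoprotein genes Apoa1, Apoa2, Apoa4, Apoa5, Apob, Apoc1, Apoc3, Apoe and Apom together with Mttp, which encodes the lipid transfer subunit of the microsomal triglyceride transfer protein. They were chosen by symbol for their place in lipoprotein assembly, with earlier results of these data known. All 10 were found among the 16540 genes of the count table. Liver mRNA was sequenced from male mice labelled Apoe-/- that were fed a Western diet, a genotype and diet shared by both groups. Of these, 4 mice received vehicle and 4 received isoginkgetin (ISOGK), a plant biflavonoid, at 20 mg/kg per day for 8 weeks by intraperitoneal injection. One library was made per mouse, so each value below is that of 1 animal. That the libraries come from separate animals rests on the labels.

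Apolipoproteins are the protein parts of the particles that carry lipids in blood. In hepatocytes, apoB is made on the endoplasmic reticulum and is loaded with triglyceride by the microsomal triglyceride transfer protein, and the finished particle is secreted as very low density lipoprotein (VLDL). ApoA-I and apoA-II instead form high density lipoprotein (HDL), while the smaller exchangeable apolipoproteins move between particles and set how fast lipases and receptors act on them. ApoE is the ligand by which the liver takes up remnant particles, and its loss is the basis of the Apoe-/- model of atherosclerosis.

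Apoa4 and Mttp were the members that rose in ISOGK-treated livers. Apoa4, which encodes an exchangeable apolipoprotein of chylomicrons, VLDL and HDL, was 2.75-fold higher, and Mttp was 1.43-fold higher. The other 8 genes, including the structural genes Apob, Apoa1 and Apoa2, did not pass the test. Thus 2 of the 10 members were called higher at an adjusted p under 0.05 and 0 were called lower, beside 4.11% of all genes tested called higher and 3.44% lower. As the members were chosen with earlier results known, these counts are a description. Only Apoa4 of the 10 also passed the stricter rule that adds a log2 fold change over 1, which 0.999% of all genes tested passed in the upward direction. The members' median log2 fold change was 0.18 and 8 of the 10 values were above 0, beside a median of 0.00 over the 12307 genes tested.

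The 4 vehicle libraries held 19605286 to 24461854 counts and the 4 ISOGK libraries 17457106 to 21626399. The 10 members together took 1.58% to 1.78% of the counts in vehicle-treated livers and 1.61% to 1.76% in ISOGK-treated livers. Levels are given as CPM, counts scaled to the library size after TMM normalization, and each mean is followed by its SD over 4 mice. Tests are those of edgeR's quasi-likelihood model, Benjamini-Hochberg adjustment was made over all 12307 genes, and intervals are 95% intervals of the log2 fold change. With library size alone in place of TMM, the median log2 fold change of all genes was -0.13. All 10 hepatocyte markers were tested and edgeR called 0 (1, Tat, had an unadjusted p under 0.05). As whole tissue was used, fewer cells of a type and less RNA per cell cannot be told apart.

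Apoa1, Apoc3, Apoa4 and Apoa5 lie in 1 cluster on chromosome 9. In GRCm38 (the annotation GENCODE M21, of the same assembly as the mm10 build in the labels), Apoa1 spans chr9:46228580-46230466 on the plus strand, Apoc3 chr9:46232933-46235636 on the minus strand, Apoa4 chr9:46240696-46243459 on the plus strand and Apoa5 chr9:46268633-46271919 on the plus strand. The bases before the starts of 3 of them are shown because these neighbours differed in their change, with Apoa4 called and the other 2 not. The sequences come from RefSeq (GRCm38.p6) and run 5′ to 3′ on the plus strand. Each begins 250 bases before a RefSeq transcript start and was ended at the base before the gene's GENCODE start. Capitals mark the matches to the 6 motifs searched.

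Apoa4, chr9:46240594-46240695: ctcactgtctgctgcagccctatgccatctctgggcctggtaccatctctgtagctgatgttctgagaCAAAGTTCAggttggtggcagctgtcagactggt
Apoa1, chr9:46228380-46228579: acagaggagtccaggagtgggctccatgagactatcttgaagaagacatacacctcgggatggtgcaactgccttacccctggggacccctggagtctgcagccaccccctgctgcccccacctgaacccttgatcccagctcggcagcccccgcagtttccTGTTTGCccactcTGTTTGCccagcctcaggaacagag
Apoa5, chr9:46268383-46268632: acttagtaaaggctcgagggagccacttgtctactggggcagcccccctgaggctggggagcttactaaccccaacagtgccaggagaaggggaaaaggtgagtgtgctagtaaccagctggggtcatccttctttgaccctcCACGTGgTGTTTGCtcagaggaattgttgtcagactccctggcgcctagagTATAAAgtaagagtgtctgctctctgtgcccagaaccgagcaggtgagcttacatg

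The motifs were looked for on both strands of the 250 bases before each RefSeq start, and they were picked with these sequences in view. Distances below are to that RefSeq start, which for Apoa4 and Apoa1 lies past the end of the printed sequence. Of their 250 bases, 102 and 200 lie before the GENCODE start. In the Apoa4 window 1 match was found, CAAAGTTCA at 182 bases before the start, to the HNF4-type letters CAAAGNNCA, which 5.49% of 32851 mouse promoter windows of the same length hold. The Apoa1 window held 2 matches to the FOXA-type letters TGTTTNC, at 88 and 75 bases before its start, and 17.8% of all windows hold at least 1 such match. The Apoa5 window held a FOXA-type match, a TATA box (TATAAA, in 12.4% of windows) and, 1 base away from the FOXA-type match, an E-box (CACGTG, in 6.02% of windows). The nuclear receptor half-site AGGTCA (14.0% of windows) and the letters ACGTCA (6.47%) were not found in these 3 windows. Of the 10 members, 8 had an entry in the promoter table, and Apoc1 and Apoc3 had none. Among the others, the Apob window held an HNF4-type match, a FOXA-type match and a TATA box. The Apom window held a FOXA-type match, and the windows of Apoa2 held a FOXA-type match, a TATA box and AGGTCA. An Apoe window held 2 TATA box matches. The Mttp window (chr3:138143419-138143668) held ACGTCA 29 bases before its RefSeq start. This window, that Apoe window and all but 1 base of the Apom window lie inside the genes as annotated by GENCODE. These matches describe the letters only.

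Apoe, the gene targeted in both groups by the labels, is reported first. It lies on the minus strand at chr7:19696109-19699188. Counts on Apoe were 3252, 4963, 4793 and 4874 in the vehicle-treated mice and 5195, 6489, 3598 and 4953 in the ISOGK-treated mice. Reads were therefore assigned to the gene in every library, no library of wild-type mice was there to set them against, and the table does not say where in the gene they fell. In CPM, the vehicle-treated mice had 163, 196, 187 and 218 and the ISOGK-treated mice 255, 342, 203 and 259. The highest vehicle-treated mouse lay above the lowest ISOGK-treated mouse, so the groups overlapped. Mean CPM was 191 ± 22.6 with vehicle and 265 ± 57.5 with ISOGK, and the difference of 0.47 on the log2 scale (SE 0.15, interval 0.15 to 0.79) was not called (edgeR adjusted p = 0.0740). Apoe was called by DESeq2 (adjusted p = 0.0321) and by edgeR without ISOGK mouse 3 (adjusted p = 0.0225).

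Macrophages also transcribe Apoe. Of 10 macrophage markers, 9 had negative log2 fold changes. By edgeR only Cd68 was called (-0.57, adjusted p = 0.00900), beside 3.44% of all genes tested called lower. Cd5l (-0.39, edgeR adjusted p = 0.0639) was the other marker at an unadjusted p under 0.05, and DESeq2 called 2 markers lower. In Cd68 and Cd5l all ISOGK values lay below the vehicle values, as in 7.35% of all genes tested. The summed level of the list ran from 1492 to 1895 CPM in vehicle-treated livers and from 1238 to 1570 CPM in ISOGK-treated livers. The part of this difference in the value of Apoe was not tested.

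Apob, whose protein is the scaffold of VLDL and low density lipoprotein and stays with the particle for life, was the member with the log2 fold change closest to 0. Its level was 3802, 3287, 3306 and 2775 CPM in the vehicle-treated mice and 3323, 3388, 3767 and 2744 CPM in the ISOGK-treated mice. Both groups covered nearly the same range. The log2 fold change was 0.01 (SE 0.13, edgeR adjusted p = 0.984), and its interval of -0.27 to 0.28 leaves room for a modest change either way. The sign of so small a value was not stable, and with library size alone it was -0.11.

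Mttp, whose product lipidates apoB and is the target of the drug lomitapide, was higher in ISOGK-treated livers. Vehicle-treated mice had 302, 237, 287 and 267 CPM, and ISOGK-treated mice had 381, 394, 426 and 362 CPM. All ISOGK-treated mice lay above all vehicle-treated mice, as they did for 7.91% of all genes tested, while 7.35% separated in the other direction. The mean rose from 273 ± 27.8 to 391 ± 27.1 CPM (log2 fold change 0.52, SE 0.10, interval 0.29 to 0.74, edgeR adjusted p = 0.0112). The call held when each mouse was left out in turn (adjusted p = 0.0118 to 0.0477) and was lost with library size alone (log2 fold change 0.39, edgeR adjusted p = 0.0592).

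**Figure D1:**
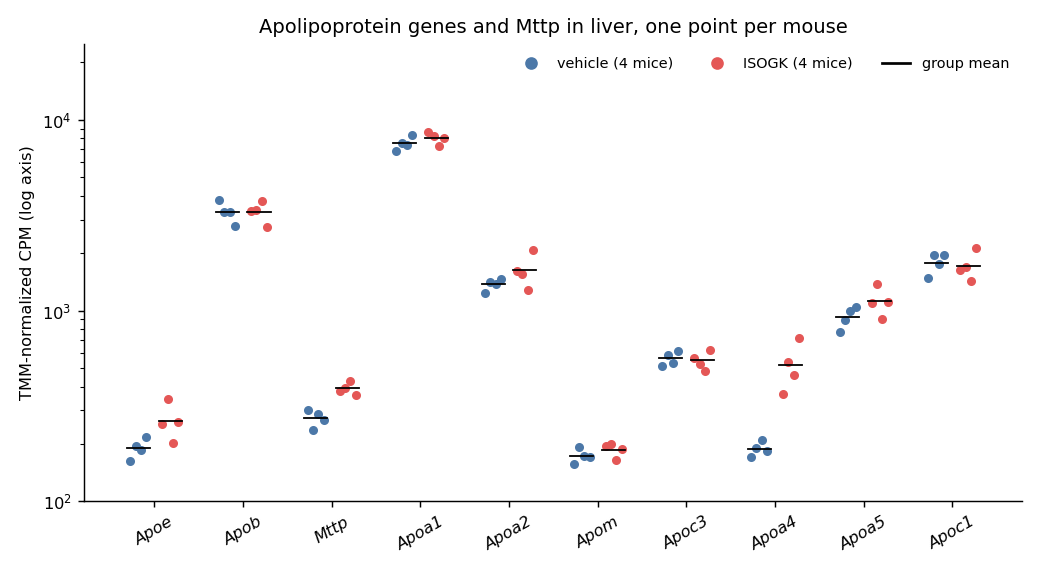
TMM-normalized CPM (log axis) of the 10 genes in liver, with 1 point per mouse, 4 vehicle-treated and 4 ISOGK-treated, and black bars at the group means. The groups do not overlap for Apoa4 (171 to 211 against 365 to 715 CPM) and Mttp (237 to 302 against 362 to 426 CPM), and they overlap for the other 8 genes.

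None of the 3 HDL apolipoprotein genes was called. Apoa1 encodes the main protein of HDL and the activator of the esterifying enzyme LCAT. It had 6903, 7529, 7399 and 8307 CPM in the vehicle-treated mice and 8664, 8271, 7263 and 8031 CPM in the ISOGK-treated mice. These ranges overlapped widely, and the log2 fold change of 0.10 (interval -0.12 to 0.32, edgeR adjusted p = 0.604) became -0.04 with library size alone.

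Apoa2, which encodes the second structural protein of HDL, had 1234, 1413, 1382 and 1458 CPM in the vehicle-treated mice and 1621, 1566, 1283 and 2079 CPM in the ISOGK-treated mice. In the ISOGK group, 3 of the 4 mice lay above every vehicle-treated mouse and mouse 3 lay within the vehicle range. The log2 fold change of 0.26 (interval -0.04 to 0.55) was not called (edgeR adjusted p = 0.276), and it lay between 0.12 (without ISOGK mouse 4) and 0.35 (without ISOGK mouse 3) when mice were left out.

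Apom encodes the HDL protein that carries sphingosine-1-phosphate. Its level was 156 to 193 CPM in vehicle-treated mice and 164 to 199 CPM in ISOGK-treated mice, with a log2 fold change of 0.11 (interval -0.11 to 0.33, edgeR adjusted p = 0.547) that turned to -0.02 with library size alone.

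Among the exchangeable apolipoproteins, Apoa4 stood apart. Apoa4 is made mostly in the intestine in many mammals and also in mouse liver, where fasting and fat feeding are known to raise it. Its level was 171, 191, 211 and 183 CPM in the vehicle-treated mice and 365, 538, 460 and 715 CPM in the ISOGK-treated mice. The lowest ISOGK-treated mouse was well above the highest vehicle-treated mouse. The ISOGK-treated mice were also more spread out, with an SD of 148 around a mean of 519 CPM beside 16.5 around 189 CPM. ISOGK mouse 4, with the highest Apoa4 level, stood apart over all genes as well, with a chi-square per gene of 81.0 to 93.4 against the other ISOGK-treated mice, beside 30.9 to 63.0 among those, and the lowest TMM factor (0.883). Without it the log2 fold change of Apoa4 was 1.26 (edgeR adjusted p = 0.000644). The log2 fold change was 1.46 (SE 0.18, interval 1.07 to 1.85, edgeR adjusted p = 0.00124). It stayed between 1.26 and 1.59 in the 16 alternative analyses, and Apoa4 was called in all 16.

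Enterocytes are the other main source of Apoa4, Apob and Mttp, and their markers differed widely in level in these livers. Vil1, Cdh17 and Lct reached at most 8, 3 and 1 counts in any library, and only 3 of the 10 enterocyte markers, Fabp2, Anpep and Slc5a1, had enough counts to be tested. None of the 3 was called (log2 fold changes 0.25, 0.23 and 0.13). The summed level of the listed markers, nearly all of it from Anpep and Fabp2, was 132 to 157 CPM in vehicle-treated livers and 159 to 186 CPM in ISOGK-treated livers, without overlap. All 3 tested markers had positive values, and their part in the result for Apoa4 and Mttp was not tested. Skeletal muscle markers stood out in vehicle mouse 4, the highest library for all 10 of them, with a summed level of 82.4 CPM. Without that mouse the log2 fold change of Apoa4 was 1.44 and that of Mttp was 0.51. Of the remaining marker lists, edgeR called 1 of 4 tested adipocyte markers higher (Cidec, a lipid droplet gene, 3.92). Pck1 (0.51, edgeR adjusted p = 0.0679) was also at an unadjusted p under 0.05, and DESeq2 called 2 of the 4 higher. Of the 5 tested bile duct markers, edgeR called 1 higher (Sox9, 0.51). None of the 8 stellate cell and fibroblast markers was called by edgeR or limma-voom (1 by DESeq2 and 1 at an unadjusted p under 0.05). Over all genes tested, edgeR called 4.11% higher and 3.44% lower. All 5 bile duct markers had positive values, with a median of 0.61. Of these 5, 4 were at an unadjusted p under 0.05 (Krt19 at 1.39, Krt7 at 1.21 and Spp1 at 0.61 beside Sox9), and DESeq2 called 2. Such p-values were common over all genes. In the order of unadjusted edgeR p-values, Apoe, under 0.05, ranked 1252 of 12307 and Apoa5, above 0.05, ranked 3406. The number of genes under 0.05 therefore lay between these ranks. The summed level of the bile duct markers was 27.6 to 34.8 CPM in vehicle-treated livers and 28.3 to 69.1 CPM in ISOGK-treated livers. Its part in the values of the members was not tested.

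Apoa5, which encodes a low-abundance activator of lipoprotein lipase, had 771, 894, 1001 and 1044 CPM in the vehicle-treated mice and 1093, 1384, 909 and 1117 CPM in the ISOGK-treated mice. Again ISOGK mouse 3 lay within the vehicle range while the other 3 lay above it. The log2 fold change was 0.28 (interval -0.02 to 0.58, edgeR adjusted p = 0.242), which did not pass the test.

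Apoc3 and Apoc1 had fold changes near 0. Apoc3, an inhibitor of lipoprotein lipase and of remnant uptake, had 514 to 613 CPM in vehicle-treated mice and 482 to 626 CPM in ISOGK-treated mice (log2 fold change -0.03, interval -0.26 to 0.20, edgeR adjusted p = 0.892). Apoc1, whose protein inhibits remnant clearance, had 1489 to 1957 CPM and 1437 to 2125 CPM (log2 fold change -0.05, interval -0.35 to 0.24, edgeR adjusted p = 0.844). In both cases the ISOGK-treated range enclosed the vehicle-treated range. Over the 8 uncalled members, the fold changes ran from -0.05 to 0.47 on the log2 scale, and no interval reached below -0.35 or above 0.79.

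**Figure D2:**
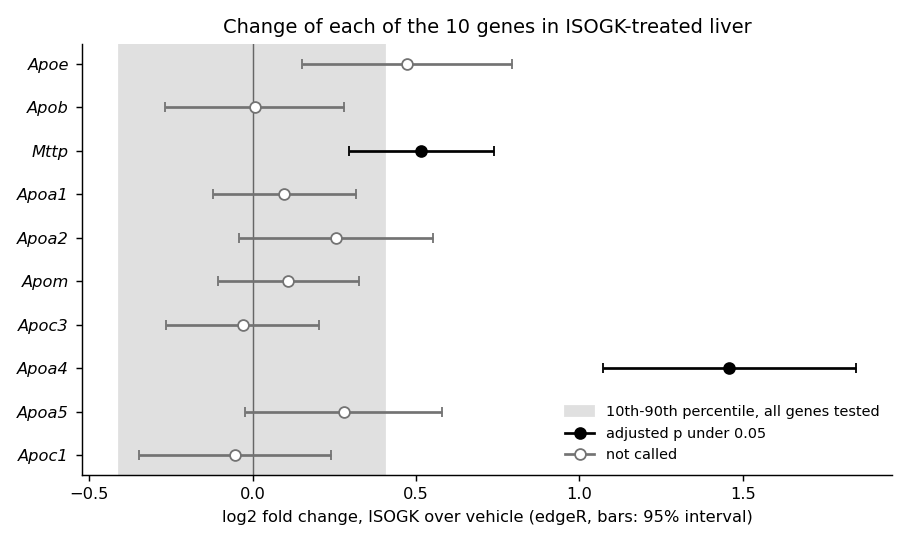
Log2 fold change of each of the 10 genes, ISOGK over vehicle, with its 95% interval from edgeR (n = 4 mice a group). The gray band spans the 10th to the 90th percentile of all genes tested (-0.41 to 0.40), and Apoa4 at 1.46 and Mttp at 0.52 are the 2 called genes.

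Levels of different genes were compared per kilobase of exon, as TMM-normalized CPM per kilobase of the union of each gene's exons. In vehicle-treated livers the order of the group medians was Apoa1 (6039), Apoa2 (2602), Apoc1 (2491), Apoc3 (552), Apoa5 (376), Apob (237), Apom (170), Apoa4 (103), Apoe (89.5) and Mttp (44.6). Apoa2 and Apoc1 overlapped between mice, at 2298 to 2715 and 2002 to 2631. Apoa4 and Apoe also overlapped, at 94.4 to 116 and 76.3 to 102. For the remaining neighbours in the order the ranges of the 4 mice were separate. In ISOGK-treated livers Apoa4 reached a median of 275 and passed Apom (190) and Apob (241) into the 6th place, while the other 9 kept their order among themselves. There the range of Apoa4, at 201 to 394, overlapped with that of Apob, at 197 to 270, and with that of Apoa5, at 360 to 549. Apoa5 in turn overlapped with Apoc3 (475 to 617), and Apoa2 (2390 to 3872) with Apoc1 (1932 to 2856). With the longest transcript as the length, Apoc1 ranked above Apoa2, and Apoe above Apoa4 in vehicle-treated livers, so these 2 orders depend on the length used. That length also raised the vehicle medians of Mttp to 69.9 and of Apoe to 136.

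The ratio of Apoa4 to Apoa1 counts compares neighbouring genes within a library and does not depend on scaling. It was 0.0248, 0.0253, 0.0285 and 0.0221 in the vehicle-treated mice and 0.0421, 0.0650, 0.0633 and 0.0890 in the ISOGK-treated mice. The lowest ISOGK-treated mouse was above the highest vehicle-treated mouse. The mean log2 ratio rose from -5.32 ± 0.15 to -4.00 ± 0.44, a difference of 1.32 or 2.50-fold (exact permutation test, two-sided, p = 0.0286, which is the lowest value possible with 4 mice a group). When each of the other 8 members was put in the place of Apoa1, a choice made after the data had been examined, the groups separated in every case. The differences in the mean log2 ratio over these 9 comparisons ran from 0.90 against Mttp and 0.96 against Apoe to 1.48 against Apoc1. All 9 share the counts of Apoa4, which separated the groups by itself, so they are given as a description. For the same reason the p for the ratio to Apoa1 adds no separate support to the result for Apoa4.

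**Figure D3:**
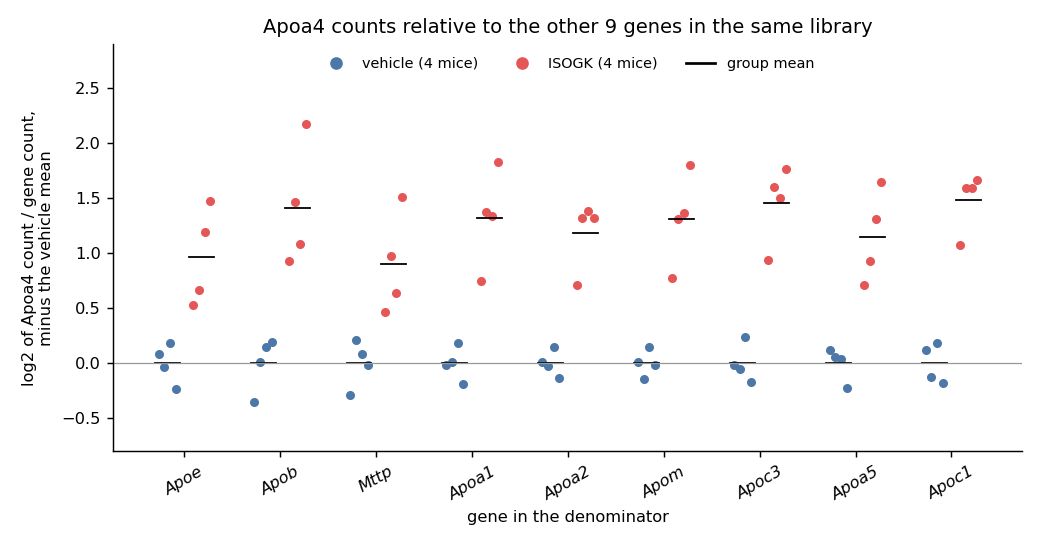
Log2 of the Apoa4 count over the count of each other gene in the same library, minus the mean of the vehicle group, with 1 point per mouse (4 vehicle, 4 ISOGK) and black bars at the group means. The ISOGK-treated mice lie above all vehicle-treated mice for each of the 9 genes, by 0.90 (Mttp) to 1.48 (Apoc1) in the mean.

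Within the chromosome 9 cluster, whose 4 members span 43.3 kb, Apoa4 was the only called gene. Apoc3 and Apoa1 on one side of it and Apoa5 on the other were not called. Within 100 kb lie 4 further genes, of which 3 could be tested and edgeR, DESeq2 and limma-voom each called 0, with 0 also at an unadjusted p under 0.05. These were Sik3, a salt-inducible kinase gene (log2 fold change -0.05), Zpr1, a zinc finger protein gene (-0.21), and Bud13, a splicing factor gene (-0.03). The fourth, 4931429L15Rik, had at most 2 counts in a library.

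**Figure D4:**
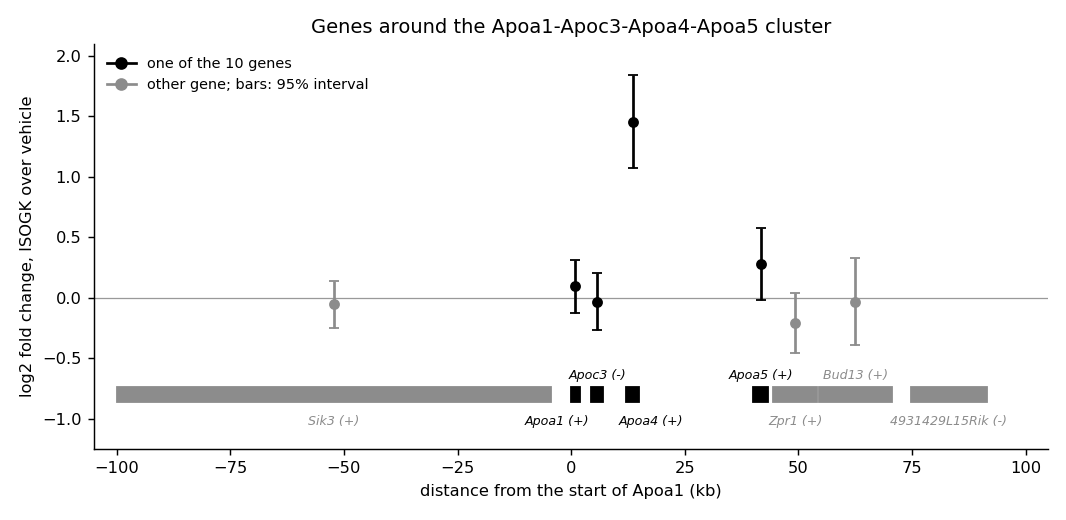
Log2 fold change (ISOGK over vehicle, bars are 95% intervals) of the genes within 100 kb of the chromosome 9 cluster, placed by distance from the start of Apoa1, with gene bodies drawn below to scale (Sik3 goes on beyond the left edge) and strands in brackets. Apoa4 at 1.46 stands above its neighbours, which lie between -0.21 (Zpr1) and 0.28 (Apoa5), and 4931429L15Rik has no value.

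Apoe and Apoc1, both on the minus strand, span 9.7 kb of a second cluster on chromosome 7. Of the 10 other genes there within 100 kb, all were tested and edgeR called 1, Bcam, which encodes a laminin-binding adhesion protein (3.58 to 7.01 CPM in the mean, log2 fold change 0.97, edgeR adjusted p = 0.00472). Of all genes tested, 4.11% were called higher. At an unadjusted p under 0.05 there were 4, with Apoc4, Nectin2 (0.39) and Cblc (0.43) beside Bcam. By the ranks given above, at least 1252 of the 12307 genes tested were also under 0.05, so this count is a description. Apoc2, whose protein activates lipoprotein lipase, differed by 0.01 on the log2 scale (edgeR adjusted p = 0.972). Apoc4, encoding a minor VLDL apolipoprotein, differed by 0.56 (edgeR adjusted p = 0.115), and it was called by DESeq2 (adjusted p = 0.0436) and by edgeR without ISOGK mouse 3 (0.73, adjusted p = 0.00507). Apoc2, Apoc4 and the readthrough gene Gm44805 overlap in the annotation, and reads may have been split between them.

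Other apolipoprotein genes were looked at as a list of 16, of which 13 were tested. By edgeR 0 were called in either direction. At an unadjusted p under 0.05 there were 4, Apon (log2 fold change 0.43), Apol7a (-0.48), Saa4 (-1.33) and Apoc4 (0.56), named after their values were seen. As given above, such p-values were common over all genes, so this count is a description. The list's median was 0.01. DESeq2 called 4 of the list and limma-voom 1. Over all 12307 genes DESeq2 called 765 higher and 670 lower, and limma-voom 461 and 411.

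Genes that act with Apob and Mttp in building and exporting VLDL formed a list of 30, all tested. Of these, 2 were called higher and 0 lower, beside 4.11% and 3.44% of all genes tested. Their median was 0.01 on the log2 scale. Tor1a, encoding the luminal ATPase torsin-1A that is needed for VLDL secretion in mice, rose from 25.8 ± 4.11 to 44.3 ± 8.39 CPM (log2 fold change 0.78, edgeR adjusted p = 0.0102). Sort1, encoding the sorting receptor sortilin that binds apoB in the Golgi, rose from 11.3 ± 2.33 to 18.8 ± 2.36 CPM (log2 fold change 0.73, edgeR adjusted p = 0.0154), and this call was lost without vehicle mouse 2 (adjusted p = 0.0608) or ISOGK mouse 2 (adjusted p = 0.0511). P4hb, the protein disulfide isomerase that is the second subunit of the microsomal triglyceride transfer protein, differed by 0.05 on the log2 scale (edgeR adjusted p = 0.853), beside the 0.52 of Mttp. Sar1b, the small GTPase of the coat that carries VLDL out of the endoplasmic reticulum, had 0.28 (adjusted p = 0.105), and all 4 of its ISOGK values lay above the vehicle values. Genes of the list that went the other way, named after their values were seen, were Mia3 (-0.55) and Mia2 (-0.36), receptors that load large cargo at the exit sites of the endoplasmic reticulum, Canx (-0.36), the chaperone calnexin, and A1cf (-0.42), a cofactor of Apob mRNA editing. None of these 4 was called by edgeR, and they were the 4 lower genes of the list at an unadjusted p under 0.05, beside 6 higher. Such p-values were common over all genes, as given above. The 6 were Tor1a, Sort1 and Sar1b with Tmem41b (0.45), Vmp1 (0.41) and Sec23a (0.20), the last 3 not called by edgeR. In 6 of the 30 genes all ISOGK values lay above the vehicle values, and in 2, Mia3 and Canx, all lay below. Of all genes tested, 7.91% and 7.35% separated in these directions. DESeq2 called 4 of the list higher and 2 lower, Mia3 and Canx, beside 765 higher and 670 lower of all 12307 genes. Tm6sf2, a factor of VLDL lipidation, had -0.05, and Apobec1, the enzyme that edits Apob mRNA, had -0.07, neither being called.

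Genes of HDL formation and remodelling formed a list of 17, with a median of -0.24. Of these, 0 were called higher and 2 lower, beside 4.11% and 3.44% of all genes tested. Abcg1, a cholesterol exporter to HDL, fell from 41.6 ± 3.92 to 29.9 ± 3.59 CPM (log2 fold change -0.48, edgeR adjusted p = 0.0216). Lipc, hepatic lipase, fell from 140 ± 6.89 to 106 ± 12.1 CPM (-0.40, edgeR adjusted p = 0.0299). Neither call was stable when mice were left out: that of Abcg1 was lost without vehicle mouse 2 or 3 or ISOGK mouse 2 (adjusted p = 0.0541, 0.0707 and 0.0653), and that of Lipc without any of the vehicle mice or without ISOGK mouse 2 or 4 (up to 0.0922). Abca1, which lipidates apoA-I, had -0.39 (adjusted p = 0.0643), and Pltp, the phospholipid transfer protein, -0.43 (0.0818). DESeq2 and library size alone called both (adjusted p = 0.0241 and 0.0331 for Abca1, 0.0463 and 0.0410 for Pltp), as did edgeR without ISOGK mouse 3 for Abca1 (0.0290) and the block on the replicate number for Pltp (0.0442). Lcat, the cholesterol-esterifying enzyme that apoA-I activates, had 0.13 (adjusted p = 0.563). In 6 of the 17 genes all ISOGK values lay below the vehicle values, against 7.35% of all genes tested. Abcg1 and Abca1 are also macrophage genes, and the macrophage markers, 1 of 10 called lower by edgeR, are given above with Apoe. Their part in these values was not tested.

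The transcription factors known to act on apolipoprotein or Mttp promoters formed a list of 29, of which 28 were tested, with a median of -0.13. Of these 28, 1 was called higher and 3 lower, beside 4.11% and 3.44% of all genes tested. Creb3l3, an endoplasmic reticulum-bound factor known to act on Apoa4 in liver, rose from 200 ± 23.4 to 269 ± 19.5 CPM (log2 fold change 0.43, edgeR adjusted p = 0.0328). That call was lost in 8 of 16 alternatives, namely library size alone, without any one of the vehicle mice and without ISOGK mouse 2 or 4 (adjusted p up to 0.112), and with the replicate number as a block. Mlxipl, the carbohydrate response factor ChREBP, fell from 89.0 ± 11.4 to 41.0 ± 6.75 CPM (-1.12, edgeR adjusted p = 0.000908). Srebf1, the sterol response factor of fatty acid synthesis, fell from 68.9 ± 15.3 to 22.7 ± 7.70 CPM (-1.60, edgeR adjusted p = 0.00592). Thrb, the thyroid hormone receptor of liver, fell from 26.9 ± 3.83 to 14.5 ± 3.32 CPM (-0.89, edgeR adjusted p = 0.00815). Hnf4a, the nuclear receptor that drives many apolipoprotein genes, had 0.05 (adjusted p = 0.804), and Ppara, the fatty acid receptor, had 0.06 (adjusted p = 0.791).

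**Figure D5:**
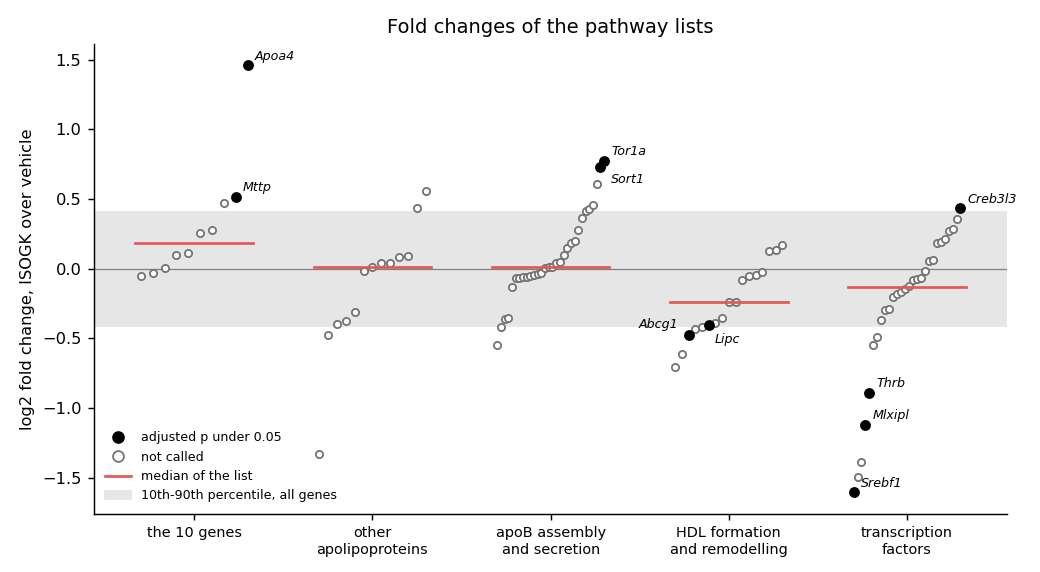
Log2 fold changes (ISOGK over vehicle) of the 10 genes and of the 4 gene lists around them, with 1 point per gene tested, filled points for an adjusted p under 0.05, red bars at the list medians and a gray band from the 10th to the 90th percentile of all genes. The medians are 0.18, 0.01, 0.01, -0.24 and -0.13 from left to right.

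The genes whose log2 CPM followed that of Apoa4 most closely over the 8 mice were Ciao2a (r = 0.987), Sdsl (0.986), Gm45716 (0.979), Dynlrb1 (0.978) and Sqstm1 (0.977). All 5 were called higher, with log2 fold changes of 0.38, 1.69, 1.78, 0.52 and 0.57. The call of Ciao2a was lost in 6 of 16 alternatives, with library size alone (edgeR adjusted p = 0.0905), without any one of the vehicle mice (0.0544 to 0.0844) and without ISOGK mouse 2 (0.0605). As all 5 differ between the groups, r is set in large part by that difference, and all points share the normalization. Among the members, Mttp came nearest to Apoa4 (r = 0.826), followed by Apoe (0.742), and Apob had the lowest value (-0.17).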

How the data were processed

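Liver RNA of 8 mice was sequenced, 1 library each. The authors aligned reads with HISAT2 to mm10, per the labels, and derived counts with StringTie; the deposited values are raw counts per gene symbol, not normalized. Whether strand was used is not given in the sources used here. Columns named DMSO were taken as vehicle, since the study's drawing of this experiment shows DMSO as the control injection.

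Genes were filtered with filterByExpr (minimum count 10, minimum total 15), leaving 12307 of 16540, normalized with TMM and tested with the robust quasi-likelihood test of edgeR 4.0.16 in R 4.3.3, with Benjamini-Hochberg adjustment over all genes tested. Ratios were tested with two-sided exact permutation tests over mice. Levels per kilobase used exon lengths of GENCODE M21, and promoters were those of RefSeq. Reads were counted without molecular identifiers, and p-values set the difference between groups against the spread between these samples. The method was tested on simulated data in which all genes and both groups had the same dispersion. In these livers the chi-square per gene between mice was 17.1 to 31.5 with vehicle and 30.9 to 93.4 with ISOGK. The simulation did not cover that difference in spread.

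The members and lists were chosen with earlier results of these data known. Named genes were all members, up to 5 called genes of each list, 11 chosen for their role, genes within 100 kb of both clusters and the 5 most like Apoa4. In the lists, 3 symbols were respelled (Trf, Apobr, Pcolce2). Alternatives were DESeq2 1.42.0, limma-voom (limma 3.58.1), 2 other scalings, 2 other filters, the test without its robust option, a block on the replicate number, and each mouse left out.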

Additional observations from a re-analysis of the deposited data

How the results depend on the processing

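Apoa4 was called in each of 16 alternatives and Mttp in 15 of 16, the exception being library size alone (1 member called higher), while 0 members were called lower in any. Leaving out mice gave 2 to 3 members called higher, the third being Apoe (without ISOGK mouse 3), as with DESeq2. Over all genes, 506 were called higher and 423 lower, against 765 and 670 with DESeq2, 262 and 804 with library size alone, and 219 to 712 and 160 to 523 without 1 mouse, with falls past 1.5 times without any vehicle mouse or ISOGK mouse 2. Sign changes among uncalled genes with library size alone gave Apoa1 -0.0355, Apob -0.115, Apoc2 -0.123, Apom -0.0237, Hnf4a -0.076, Lcat -0.0153, P4hb -0.093 and Ppara -0.062, and without the filter Apob -0.000862. Without 1 mouse, the log2 fold changes covered 0 for Apob (-0.0691 to 0.085), Apobec1 (-0.216 to 0.0368), Apoc1 (-0.172 to 0.0167), Apoc2 (-0.0603 to 0.138), Apoc3 (-0.0993 to 0.021), Bud13 (-0.128 to 0.0401), Hnf4a (-0.0175 to 0.113), P4hb (-0.0699 to 0.121), Ppara (-0.00566 to 0.135), Tm6sf2 (-0.167 to 0.0747) and Tomm40 (-0.163 to 0.0565). The called genes among the other apolipoproteins were 4 with DESeq2, 1 with limma-voom, 2 with library size alone, 1 without the robust option and 0 to 1 without 1 mouse (1 without ISOGK mouse 1, 2 or 3). In apoB assembly they were 6 with DESeq2 and 1 to 5 without 1 mouse (1 without vehicle mouse 2, 5 without ISOGK mouse 3), and in HDL remodelling 6 with DESeq2, 6 with library size alone and 0 to 3 without 1 mouse (0 without vehicle mouse 2 or 3 or ISOGK mouse 2, 1 without vehicle mouse 1 or 4 or ISOGK mouse 4). The causes were not tested.

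The deviations of mice with the same replicate number from their group means had correlations of 0.0130, -0.0144, 0.0754 and 0.0849. Mice of different numbers were not compared in this way, so these values cannot show whether the numbers pair the mice. With the replicate number as a block, 411 genes were called higher and 416 lower, Apoa4 had a log2 fold change of 1.42 and Mttp 0.52, both called, and 2 other apolipoproteins were called. For the Apoa4 to Apoa1 ratio the block gave the same difference, 1.32, with an exact sign-flip p of 0.125, the smallest that 4 pairs allow, so it cannot pass the threshold. Without 1 mouse the difference was 1.15 to 1.51 on the log2 scale, and the exact permutation p was 0.0286 or, without vehicle mouse 1, 2 or 4, 0.0571. On the linear scale the ratio differed by 0.0397. At 2907 counts or more in every library, counting error is small for each member, and the spread between 4 mice limits what can be seen.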
